A study of Mus musculus with 2 samples.

Results

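The trypsinogen genes measured here were the 10 members Prss1, Prss2, Prss3, Try4, Try5, Gm5771, Gm10334, Gm2663, 1810009J06Rik and 2210010C04Rik, chosen by symbol from the 32285 genes counted in 2 single-cell libraries of mouse pancreatic tumors. All 10 were present in both libraries, and all 10 passed the minimum of 10 UMIs (unique molecular identifiers, each standing for 1 captured RNA molecule) used for ratios. Together they held 7.87% of all UMIs of the kept cells in the EL1 library and 7.69% in the WTg library.

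Trypsinogens are the inactive precursors of trypsin, made by pancreatic acinar cells, stored in zymogen granules and released into the gut. There enteropeptidase cuts off a short activation peptide, and the active trypsin then switches on the other digestive zymogens. Cutting of trypsinogen inside the acinar cell is known for its part in pancreatitis, and the cell holds it in check with the inhibitor Spink1.

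EL1 mice (FVB/N-EL1-Luc/EL1-TAg) carry the SV40 large T antigen and firefly luciferase, each driven by the rodent Elastase I promoter, which is active in acinar cells. WTg mice came from a cross of EL1 with CAG-Mettl3 mice, which carry a Mettl3 cDNA under the ubiquitous CAG promoter and were made from BL/6 eggs, so WTg has the T antigen and luciferase too. Both were 6 weeks old, and the tumors were dispersed to single cells for 10x Genomics 3′ libraries. The number and sex of the animals were not stated, each group is 1 library, and the part of the WTg background that is BL/6 rather than FVB/N cannot be told apart from the Mettl3 transgene.

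Barcodes needed 500 genes and 1000 UMIs or more and no more than 20% of UMIs from mitochondrial genes, which kept 1113 of 1621 EL1 barcodes (37961287 UMIs) and 905 of 1488 WTg barcodes (33007683 UMIs) as cells, with a median of 26543 and 34836 UMIs. The libraries shared 15 barcodes, of which 0 were kept in both. Mettl3 stood at 15.2 CPM in EL1 against 66.7 CPM in WTg (CPM, UMIs of a gene per 1e+06 UMIs of the same cells). Acinar markers were plentiful in both, with all 18 markers detected and a summed level of 88796 CPM in EL1 and 109353 CPM in WTg, whereas 5 and 3 of 7 islet hormone markers were detected at a summed 1.21 and 0.515 CPM. With 1 library per group no difference between groups has a replicate check. All intervals are exact 95% intervals and cover counting error only.

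The 10 genes lie on chromosome 6 within 560326 bases (chr6:40964754-41525079, GRCm38) that also hold 33 of the T cell receptor genes among 57 annotated genes. All have 5 exons and none overlaps another gene. From the lowest coordinate the order is 1810009J06Rik, Gm2663, 2210010C04Rik, Try4, Try5, Prss3, Gm5771, Gm10334, Prss1 and Prss2, with the non-member Try10 between Try5 and Prss3. 1810009J06Rik (chr6:40964754-40968435, + strand) and Gm2663 (chr6:40995830-40999479, - strand) form the first pair. Prss3 (chr6:41373814-41377678, - strand), Gm5771 (chr6:41392356-41397230, + strand), Gm10334 (chr6:41442216-41446145, - strand) and Prss1 (chr6:41458932-41463786, + strand) form a block of 4 neighbours.

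The activation site, where enteropeptidase cuts after a run of aspartates and a lysine, differs between the paralogues in its number of aspartate codons and is shown for 1 gene of each number. It does not tell single genes apart, since Try4, Try5 and Prss1 held the same run, as did Prss3 with Gm10334 and 1810009J06Rik with Gm2663. Each run is coding sequence of exon 2 from the GENCODE M21 transcripts, 5′ to 3′, and the capitals mark the aspartate codons and the lysine codon before the cut.
2210010C04Rik: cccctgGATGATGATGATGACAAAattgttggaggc
Try5: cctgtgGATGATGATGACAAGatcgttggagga
Gm5771: cctgtgGATGATGATAAGatcgttggagga
1810009J06Rik: aacagtGATGACAAGattgttggaggc
2210010C04Rik (chr6:41034363-41034398, - strand) had 5 aspartate codons and Try5 (chr6:41313468-41313500, - strand) had 4, as did Try4, Prss3, Gm10334, Prss1 and Prss2. Gm5771 (chr6:41394670-41394699, + strand) had 3, and 1810009J06Rik (chr6:40966177-40966203, + strand) and Gm2663 had 2. The coding sequences of the 10 genes were 70.1% to 99.5% identical over the 45 pairs, with a median of 77.6%.

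Such likeness bears on the counts, since a read that fits several genes equally cannot be given to any of them. Of all 90-base windows in the last 500 bases of the transcript, where 3′ reads fall, another gene held an exact copy of 76.9% for 1810009J06Rik and 78.1% for Gm2663, each with the other as its copy. The share was 55.0% for Prss3 and for Gm10334, 41.1% for Gm5771, 35.3% for Prss1 and 27.7% for Try4 and for Try5. It was 0% for Prss2 and 2210010C04Rik. The counts of the first pair, of Try4 and Try5, and of the block of 4 therefore leave out reads that fit several genes, to a degree that differs between genes. Levels, shares and ranks compared between genes carry this. Where neighbours differ by few bases, the gene a counted molecule came from is also uncertain. How far either moved the counts was not tested. The reference genome is of C57BL/6, and strain differences in these sequences cannot be told apart from differences in level between the libraries.

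**Figure D1:**
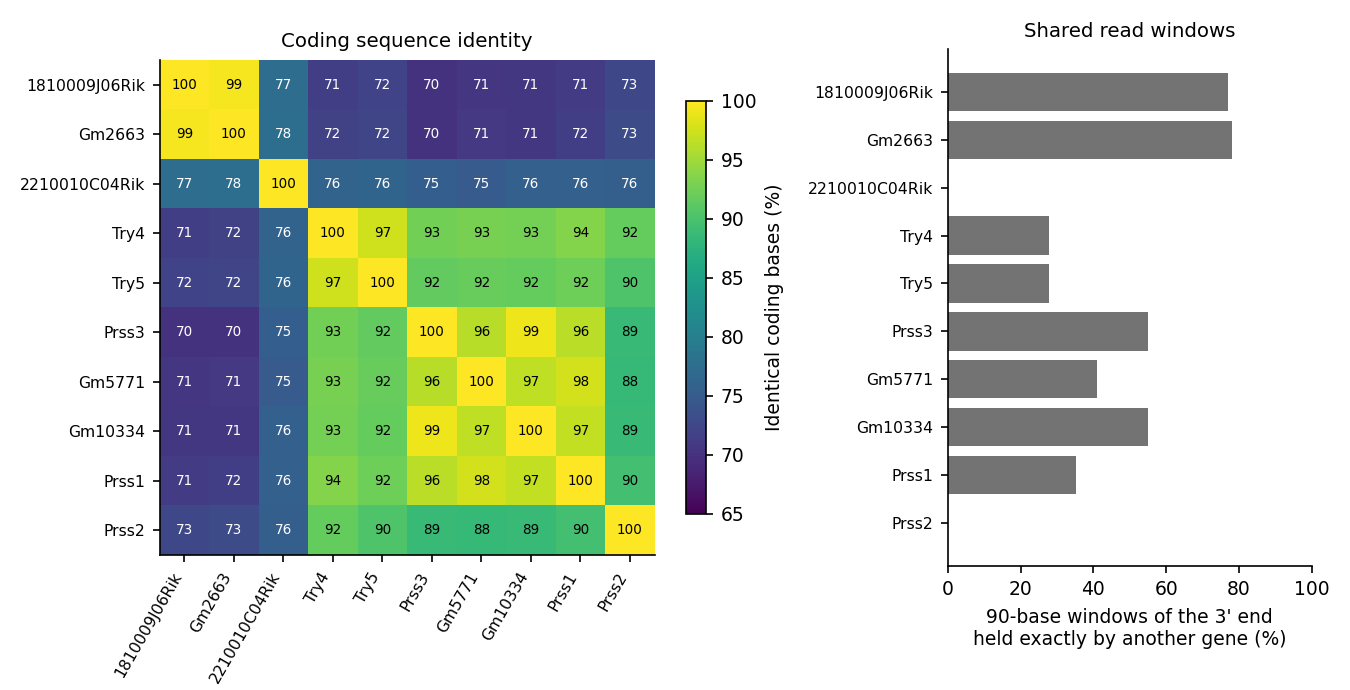
Identity of the coding sequences of the 10 trypsinogen genes (left, percent of identical bases, colour and number) and the percentage of 90-base windows in the last 500 bases of each transcript that another gene holds exactly (right, bars). 1810009J06Rik and Gm2663 were 99.5% identical and shared the most windows, while Prss2 and 2210010C04Rik shared none.

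Promoters in the RefSeq table (GRCm38.p6, 250 bases before to 50 after the start) were available for 8 members, and are shown for the block of 4, whose sum differed most between the libraries among the neighbour groups compared. The runs are the 250 bases before the start, 5′ to 3′ on the gene's strand. Capitals mark CACCTG, an E-box, TTTCCC, a TC-box, and TATAAA, each searched on both strands, so that CAGGTG and GGGAAA stand for matches on the other strand, and no match overlapped another. PTF1, the acinar complex of Ptf1a and Rbpjl, binds an E-box and a TC-box together.
Prss3: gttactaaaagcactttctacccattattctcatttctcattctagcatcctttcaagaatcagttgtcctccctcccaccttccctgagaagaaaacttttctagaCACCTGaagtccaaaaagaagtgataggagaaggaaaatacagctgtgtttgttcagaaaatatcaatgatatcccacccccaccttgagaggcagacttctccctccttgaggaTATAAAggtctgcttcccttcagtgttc
Gm10334: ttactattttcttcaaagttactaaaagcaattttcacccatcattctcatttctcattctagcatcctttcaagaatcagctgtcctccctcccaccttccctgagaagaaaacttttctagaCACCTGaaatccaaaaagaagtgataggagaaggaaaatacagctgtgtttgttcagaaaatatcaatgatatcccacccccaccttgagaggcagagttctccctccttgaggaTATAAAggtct
Gm5771: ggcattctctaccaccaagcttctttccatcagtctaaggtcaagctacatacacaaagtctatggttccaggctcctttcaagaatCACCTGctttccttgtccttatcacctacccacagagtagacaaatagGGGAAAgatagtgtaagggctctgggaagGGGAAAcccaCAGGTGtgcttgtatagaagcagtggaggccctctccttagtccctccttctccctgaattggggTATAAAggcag
Prss1: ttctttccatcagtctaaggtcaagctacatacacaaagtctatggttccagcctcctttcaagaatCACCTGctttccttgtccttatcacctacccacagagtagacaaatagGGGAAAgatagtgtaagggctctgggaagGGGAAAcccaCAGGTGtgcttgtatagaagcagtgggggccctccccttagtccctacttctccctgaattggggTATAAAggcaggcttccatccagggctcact
Prss3 (chr6:41377614-41377863, - strand) and Gm10334 (chr6:41446098-41446347, - strand) were 86.4% identical over the promoter entries, and Gm5771 (chr6:41392106-41392355, + strand) and Prss1 (chr6:41458680-41458929, + strand) were 85.3% identical. Across these 2 kinds identity was 53.2% to 59.8%. CACCTG occurred in 8 of 8 members' promoters and in 20.2% of all 32851 promoters, and TATAAA in 8 of 8 and 13.6%. TTTCCC occurred in 4 of 8 (Gm2663, Gm5771, Prss1 and Prss2), against 25.3% of all promoters, and the same 4 held both it and CACCTG, against 4.86%. A match describes the letters of this window only.

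The comparison of the libraries asked how trypsinogen RNA differs between T antigen tumors without and with the Mettl3 transgene. These tumors also differ in an unknown part of BL/6 background. The summed level of the 10 genes was nearly the same, at 78698 CPM in EL1 (interval 78609 to 78787) and at 76908 CPM in WTg (76813 to 77002). As log2 of WTg over EL1, the form of all ratios between libraries here, this is -0.03. That small difference turned to a higher level in WTg under other scalings, at 0.081 with TMM and 0.045 with every cell weighted equally, so no direction is given for the family. The make-up of the family was far apart. In WTg, 6 of the 10 genes were at least 2-fold higher, where 10.1% of all 16167 genes with at least 10 UMIs were, and 2 were at least 2-fold lower, where 6.9% of all genes were. The median log2 ratio was 2.52 over the members and -0.14 over all genes. In these sums over cells, fewer cells with a gene's RNA and less of it per cell cannot be told apart. Levels are compared between genes as molecules, without division by length, since a 3′ library gives about 1 fragment per molecule.

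**Figure D2:**
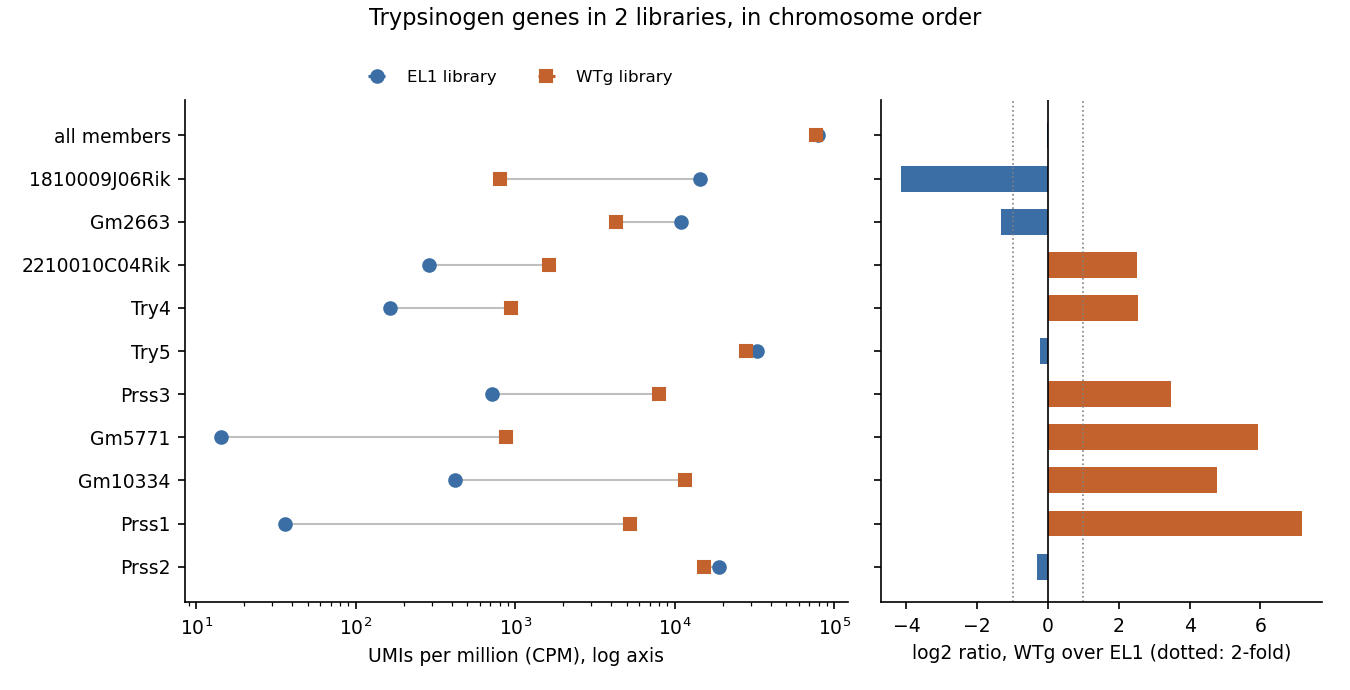
Left, level of each trypsinogen gene and of their sum in CPM (log axis) in the EL1 (circles) and WTg (squares) libraries, in chromosome order; 95% counting intervals are narrower than the symbols. Right, the log2 ratio of WTg over EL1, with dotted lines at 2-fold. The sum and the 2 leading genes Try5 and Prss2 stayed within 2-fold, the first pair was lower in WTg, and the other 6 genes were higher.

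The first pair, which has the shortest aspartate runs, stood lower in WTg. 1810009J06Rik had 545071 UMIs or 14359 CPM in EL1 and 26594 UMIs or 806 CPM in WTg, 17.8-fold lower (log2 ratio -4.16, interval -4.17 to -4.14). Gm2663 stood at 10913 CPM in EL1 against 4311 CPM in WTg, 2.53-fold lower (log2 ratio -1.34). Summed, since their reads are so alike, the pair had 25272 CPM in EL1 against 5117 CPM in WTg (log2 ratio -2.30). It made up 32.1% of trypsinogen UMIs in EL1 and 6.65% in WTg.

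The block of 4 was the reverse. Prss1 had 1368 UMIs or 36.0 CPM in EL1 and 173261 UMIs or 5249 CPM in WTg, which was 146-fold higher (log2 ratio 7.19, interval 7.11 to 7.26). Gm5771, the gene with 3 aspartate codons, had 14.4 CPM in EL1 against 881 CPM in WTg, 61.3-fold higher. In EL1, 1 cell held 44.4% of the Prss1 UMIs and 40% of the Gm5771 UMIs. Without the cell with the most UMIs of the gene in each library, Prss1 had 20.1 and 5152 CPM (log2 ratio 8.003, interval 7.90 to 8.11) and Gm5771 8.63 and 830.1 CPM (log2 ratio 6.59). Gm10334 stood at 422 CPM in EL1 against 11630 CPM in WTg, 27.6-fold higher, and Prss3 at 714 CPM and 7983 CPM, 11.2-fold higher. Summed, the block had 1186 CPM in EL1 against 25742 CPM in WTg (log2 ratio 4.44, interval 4.43 to 4.45), which was 1.51% and 33.5% of trypsinogen UMIs. The sum does not depend on how counted reads were divided within the block, but reads that fit several of its genes are not in it.

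The remaining 4 genes took 2 courses. Try5 (chr6:41311233-41316841, - strand) was the leading paralogue in both libraries, with 32796 CPM in EL1 against 28193 CPM in WTg (log2 ratio -0.22), which was 41.7% and 36.7% of trypsinogen UMIs. Prss2 (chr6:41521787-41525079, + strand) came second in both, at 18993 CPM and 15270 CPM (log2 ratio -0.31), or 24.1% and 19.9%. The low Try4 (chr6:41302269-41305532, + strand) had 164 CPM in EL1 against 945 CPM in WTg, 5.77-fold higher. 2210010C04Rik (chr6:41030268-41035509, - strand), the gene with 5 aspartate codons, had 287 CPM and 1639 CPM, 5.71-fold higher, and in EL1 34.4% of its UMIs came from 1 cell. Without the cell with the most of its UMIs in each library, the levels were 189 and 1539 CPM.

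By rank, the order in EL1 was Try5, Prss2, 1810009J06Rik, Gm2663, Prss3, Gm10334, 2210010C04Rik, Try4, Prss1 and Gm5771. In WTg it was Try5, Prss2, Gm10334, Prss3, Prss1, Gm2663, 2210010C04Rik, Try4, Gm5771 and 1810009J06Rik. The intervals of neighbours in either order did not overlap, counting error only. 1810009J06Rik was thus at place 3 in EL1 and at place 10 in WTg.

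The same was seen cell by cell. Among cells with at least 100 trypsinogen UMIs, 894 in EL1 and 713 in WTg, the median share of the first pair in a cell was 31% in EL1 (5th to 95th percentile 0.83% to 68.0%) and 3.05% in WTg (0% to 20.2%). The median share of the block of 4 was 0.322% in EL1 (0% to 5.24%) and 25.7% in WTg (1.15% to 66.0%). The block passed 10% of a cell's trypsinogen UMIs in 26 EL1 cells (2.91%, interval 1.91% to 4.23%) and in 504 WTg cells (70.7%, 67.2% to 74.0%). The distributions overlapped, since 209 WTg cells stayed at or below 10% and the highest EL1 cell reached 61.5%. Cells of 1 library share their source and are no replicates.

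**Figure D3:**
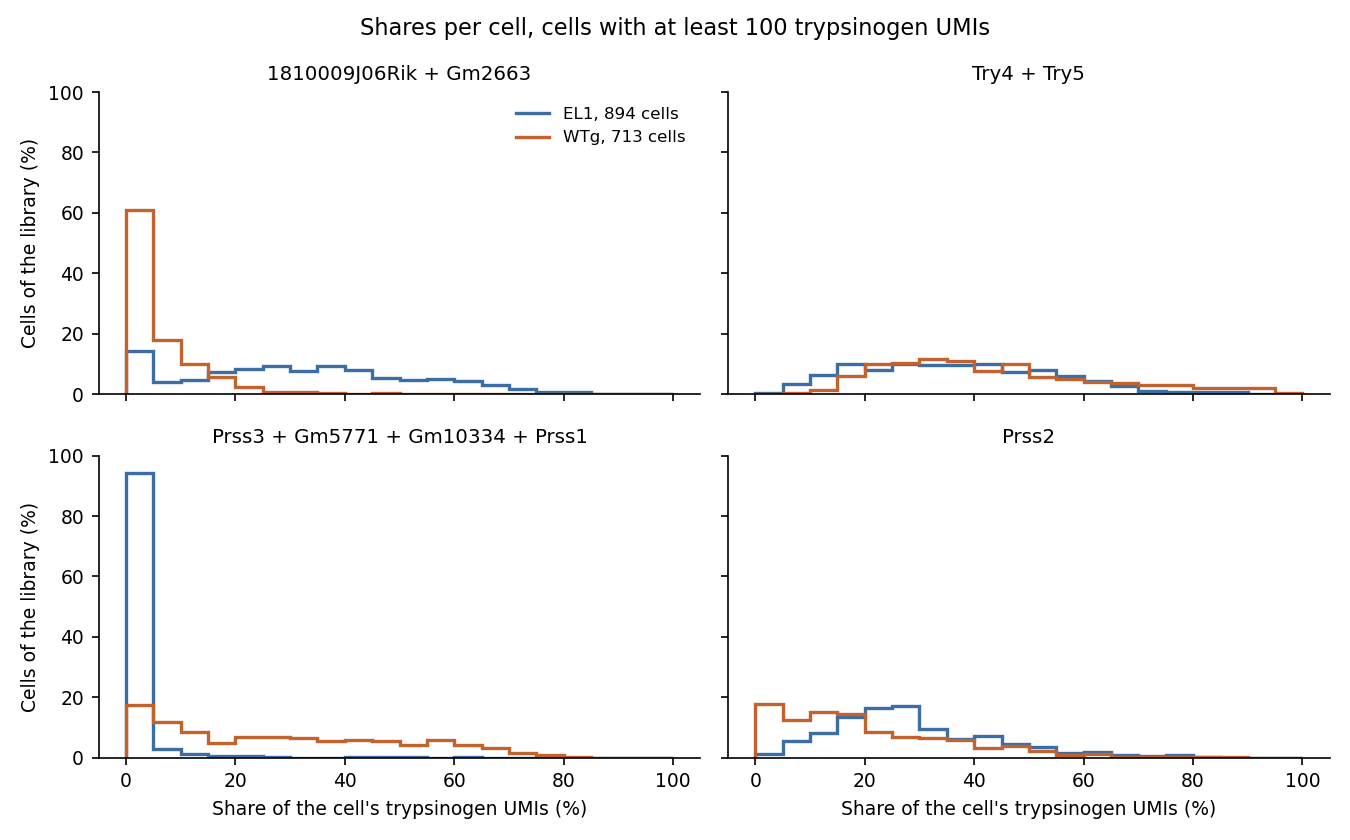
Share of a cell's trypsinogen UMIs taken by the first pair, Try4 with Try5, the block of 4 and Prss2, as the percentage of cells of a library in bins of 5% (EL1 894 cells, WTg 713 cells, each with at least 100 trypsinogen UMIs). The first pair spread up to 86.5% in EL1 and had its 95th percentile at 20.2% in WTg, while the block of 4 had its 95th percentile at 5.24% in EL1 and spread up to 84.1% in WTg.

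Try5 was the most abundant paralogue in 454 of the 894 EL1 cells (50.8%, interval 47.5% to 54.1%) and in 465 of the 713 WTg cells (65.2%, 61.6% to 68.7%). Prss2 led in 257 and 122 cells. 1810009J06Rik led in 125 EL1 cells and in 0 WTg cells (upper bound of the interval 0.516%), and Gm2663 in 55 and 8. Gm10334 led in 0 EL1 cells (upper bound 0.412%) and in 14.2% of WTg cells. Prss3 led in 3 and 9 cells, and Prss1 in 0 and 6. Prss1 had no UMI in 88.6% of these EL1 cells and in 9.40% of these WTg cells, and Gm5771 in 90.4% and 35.1%. Try5 was at 0 in 0 of the 894 and 0 of the 713 cells.

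In WTg, genes of the block varied together from cell to cell more than with genes of the first pair. Spearman's rho of their CPM over the 713 WTg cells was 0.53 to 0.85 over the 6 pairs of the block, highest for Prss3 with Gm10334, and -0.05 to 0.36 over the 8 pairs of a block gene with a first-pair gene. In EL1 the ranges were 0.22 to 0.56 and -0.09 to 0.32 over 894 cells. There Prss3 also had a rho of 0.43 with Try5 and 0.37 with Try4, and Try5 with Prss2 had 0.715. In WTg, Try4 with Try5 had 0.54, Try5 with Prss2 0.53 and Try4 with Prss3 0.51, near the lowest pairs of the block. Varying together was thus not particular to the block in either library. 1810009J06Rik had no UMI in 43.2% of these WTg cells, so its values there rest on many ties at 0. 1810009J06Rik and Gm2663 had a rho of 0.88 in EL1 and 0.38 in WTg. Cells share 1 library, depth and clusters, and reads are shared as given above, so these values are descriptions.

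Cells were grouped into 17 clusters made without the 10 genes, so that no cluster was defined by them. Acinar-like clusters were 1 (6 EL1 and 288 WTg cells), 8 (3 and 118) and 9 (28 and 59), of which cluster 9 was shallow, with a median of 3461 UMIs. Neuroendocrine-like clusters were 3 (203 and 6) and 5 (20 and 141). Macrophage-like, T or NK-like, B-like and erythroid-like clusters followed, and 8 clusters stayed unnamed, among them cluster 2 led by histone genes, Ube2c and Birc5, cluster 7 with S100g and Thbs1, and cluster 14 with Atp4b and Klk1. Of the 17, 6 had at least 20 cells of both libraries, and a cluster mostly of 1 library may be that library rather than a type. A class name needed markers raised over all other cells, so cells with acinar RNA at a common level could stay unnamed. The unnamed clusters held 785 EL1 cells with 90612 CPM of the family and 224 WTg cells with 66311 CPM.

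The summed trypsinogen level differed strongly between clusters. In EL1 it was highest in cluster 7, at 188472 CPM, and stood at 95284 CPM in cluster 4, 32780 CPM in the neuroendocrine-like cluster 3, 9222 CPM in cluster 14 and 4264 CPM in the neuroendocrine-like cluster 5. In WTg it was highest among clusters of at least 20 cells in cluster 9, at 166618 CPM, followed by 96466 CPM in cluster 1, 92560 CPM in cluster 8, 80805 CPM in cluster 13, 68387 CPM in cluster 2, 39968 CPM in cluster 6 and 37340 CPM in cluster 5. Single cells spread widely within a cluster, for example from 5306 to 282483 CPM with a median of 87258 CPM in WTg cluster 1.

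**Figure D4:**
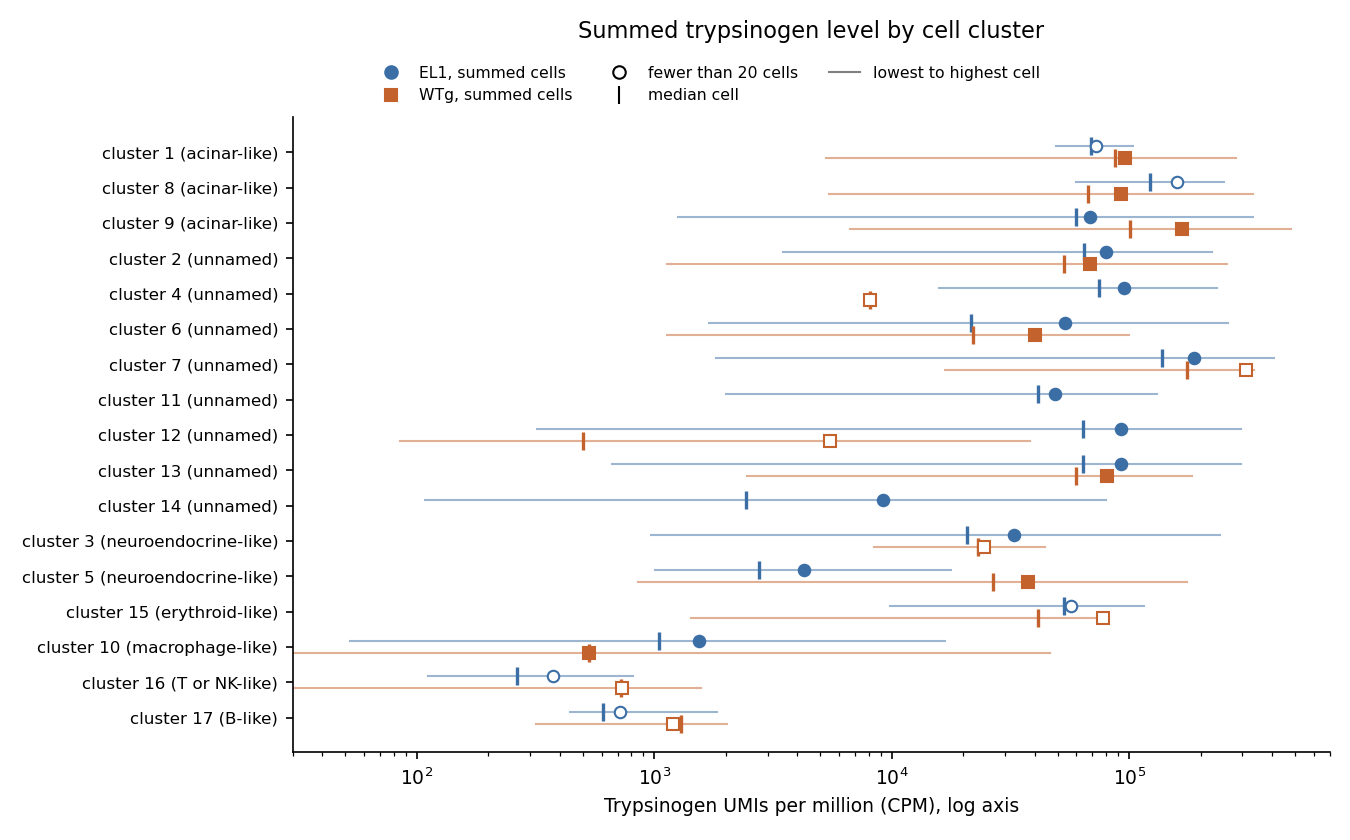
Summed level of the 10 trypsinogen genes in CPM (log axis) by cluster in EL1 (circles) and WTg (squares), summed over cells, with the median cell (tick) and the range of cells (line, drawn to the left edge where a cell had 0); open symbols mark fewer than 20 cells. Immune-like clusters lay lowest, between 373 and 1540 CPM, and EL1 cluster 7 lay highest among clusters of at least 20 cells, at 188472 CPM.

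Immune cells do not make trypsinogen, so the immune-like clusters (macrophage-like, T or NK-like and B-like) were read as background. There the family had 1422 CPM in 50 EL1 cells and 569 CPM in 67 WTg cells. The erythroid-like cluster stood far higher, at 56728 CPM in 18 EL1 cells (median 1828 UMIs) and 77437 CPM in 2 WTg cells. The immune-like level may therefore not hold as background for every kind of barcode, and the source of the erythroid-like UMIs was not tested. At least 1 trypsinogen UMI was found in 70.2% of EL1 and 70.0% of WTg immune-like cells after thinning every cell to 2000 UMIs (unthinned 100% and 97.0%). Over all kept cells the thinned shares were 97.6% (1026 of 1051 cells, 62 shallower cells left out) in EL1 and 96.9% (810 of 836 cells, 69 left out) in WTg, with unthinned shares of 100% and 99.8%. The median depth before thinning was 6882 and 8161 UMIs in immune-like cells, against 26543 and 34836 in all kept cells. A share of cells with a UMI therefore says little for the whole family or for Try5, at 95.1% and 94.3% of all thinned cells against 55.3% and 41.7% of immune-like ones.

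For the genes of the block the shares were further apart. Prss1 had a UMI in 1.81% of thinned EL1 cells and 54.7% of thinned WTg cells (unthinned 9.25% and 80.7%), against 0 of 47 EL1 immune-like cells (upper bound 7.55%) and 6.67% of WTg immune-like cells. Gm5771 had a UMI in 1.14% and 27.8% (unthinned 7.73% and 54.1%), against 0 of 47 and 1.67%. The EL1 shares of both were at or below what the immune-like cells allow, so these shares cannot be told from background. By level, the EL1 immune-like cells had 0 UMIs of either gene (upper bound 6.14 CPM). All kept EL1 cells had 36.0 CPM of Prss1 and 14.4 CPM of Gm5771. Without the cell with the most UMIs of the gene these were 20.1 and 8.63 CPM. For Prss3 the shares were 24.4% and 76.9% (unthinned 48.3% and 92.9%), against 0 of 47 and 10%. For 1810009J06Rik they were 77.0% and 29.9% (unthinned 92.5% and 47.4%), against 17.02% and 0 of 60 (upper bound 5.96%). The immune-like cells carried the make-up of their own library, with the first pair at 17.5% of trypsinogen UMIs in the macrophage-like cluster of EL1 and 6.07% in that of WTg, and the block of 4 at 1.71% and 30.7%.

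The make-up went with the library in the clusters of at least 20 cells. Over the 12 EL1 clusters with at least 20 cells, the first pair took 17.5% (cluster 10) to 44.2% (cluster 11) of trypsinogen UMIs, and over the 8 WTg clusters 4.72% (cluster 9) to 8.19% (cluster 2), with no overlap. The block of 4 took 0.533% (cluster 5) to 10.0% (cluster 14) in EL1 and 11.9% (cluster 8) to 40.3% (cluster 1) in WTg, again with no overlap. Try4 with Try5 took 28.2% to 54.3% in EL1 and 33.7% to 47.9% in WTg, and Prss2 16.7% to 35.7% and 15.3% to 28.0%, with ranges that overlapped. Try5 was the leading gene in each of these 20 sums. The smaller clusters left out here did overlap. EL1 clusters 8 (3 cells) and 16 (5 cells) had the first pair at 4.46% and 6.67%. WTg clusters 4 (1 cell) and 7 (2 cells) had the block of 4 at 8.25% and 5.21%. Cluster 10, read above as background, is among the clusters of at least 20 cells and gave the lowest EL1 share of the first pair. Whether other groups of genes part the libraries over clusters in the same way was not tested.

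**Figure D5:**
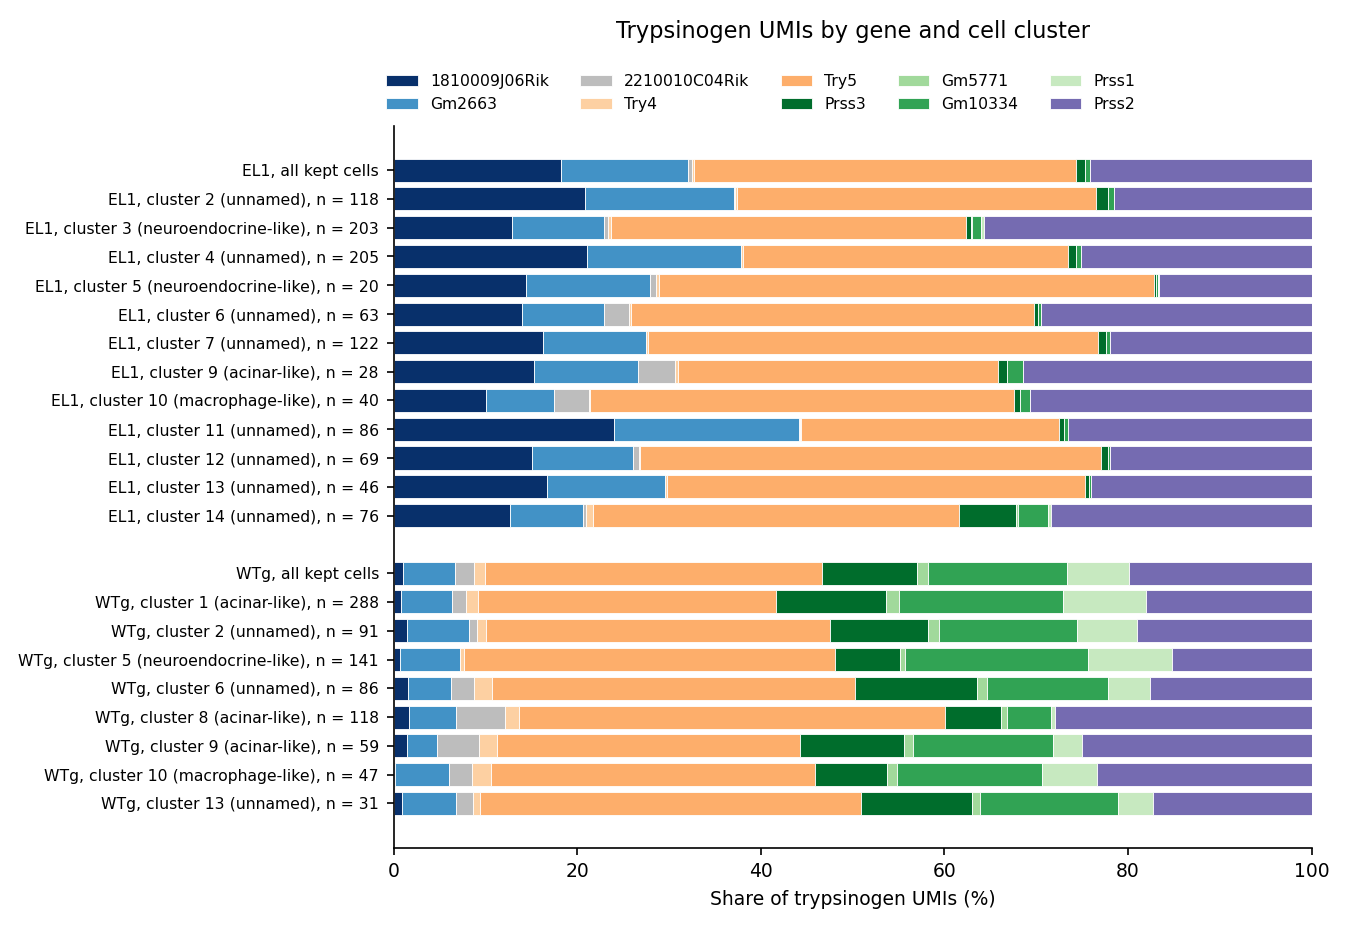
Share of trypsinogen UMIs by gene (colours, in chromosome order) over all kept cells and over each cluster with at least 20 cells of a library, EL1 above and WTg below. The first pair (blue) took at least 17.5% in every EL1 cluster shown and at most 8.19% in every WTg cluster shown, and the block of 4 (green) at most 10.0% and at least 11.9%.

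Cluster 2 had the highest median depth of the 17 clusters, 48702 UMIs, and many cells of both libraries (118 EL1 and 91 WTg). There the family stood at 79844 CPM in EL1 against 68387 CPM in WTg (log2 ratio -0.22). Prss1 had 51 UMIs or 7.45 CPM in EL1 and 23506 UMIs or 4460 CPM in WTg (log2 ratio 9.23, interval 8.83 to 9.65). Gm5771 had 4.38 and 807 CPM, Gm10334 497 and 10294 CPM, and Prss3 999 and 7327 CPM. 1810009J06Rik had 16629 and 1010 CPM, a log2 ratio of -4.04, and Gm2663 12982 and 4593 CPM. Over the 6 clusters with at least 20 cells of both libraries, Prss3, Gm10334, Prss1 and Try4 were at least 2-fold higher in WTg in 6 of 6 and 1810009J06Rik at least 2-fold lower in 6 of 6, though some of these rest on few UMIs. The share of all genes that did so in 6 of 6 was not counted, so how unusual this is cannot be said. In cluster 10, Prss1 had 0 UMIs in EL1, which makes its ratio a bound, 1810009J06Rik had 1 UMI in WTg, and Try4 had 1 UMI in EL1 and 11 in WTg, with an interval of -0.22 to 7.99 that includes no difference. Prss1 had 1 EL1 UMI in cluster 5 and 1 in cluster 6. Gm5771 was at least 2-fold higher in WTg in 5 of 6, 3 of the 6 ratios being bounds from 0 UMIs in EL1. Gm2663 was at least 2-fold lower in 4 of 6 and higher in cluster 5, where the whole family was higher (log2 ratio 3.13). The EL1 side of cluster 5 was 20 cells with 4264 CPM of the family, beside 1422 CPM in EL1 immune-like cells. How much of it was background was not tested.

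The acinar-like class need not hold all acinar cells of either library. In it, 37 EL1 cells (28 of them in the shallow cluster 9) stood against 465 WTg cells (288 of them in cluster 1). Their median depth was 4993 and 38927 UMIs. The family level was 92473 CPM in EL1 against 96830 CPM in WTg. The ratio (log2 0.07) turned to -0.09 at a clustering resolution of 2 and reached 0.66 at 0.5. Of the 46527 EL1 family UMIs, 12303 came from cluster 9, the only acinar-like cluster with at least 20 cells of both libraries. Within it the family stood at 68648 CPM in EL1 against 166618 CPM in WTg (log2 ratio 1.28). The class sums therefore do not show that acinar-like cells were alike in level. At least 2-fold higher in WTg were 5 of 10 members (Try4, Prss3, Gm5771, Gm10334 and Prss1), where 9.77% of 12810 genes were, and 2 were at least 2-fold lower (1810009J06Rik and 2210010C04Rik), where 21.9% of genes were. Prss1 had 187 CPM in EL1 against 6677 CPM in WTg, and 1810009J06Rik 10162 and 982 CPM. Without the cell with the most UMIs of the gene in each library, Prss1 had 52.9 and 6520 CPM (log2 ratio 6.95 in place of 5.16), with 25 UMIs left in EL1. In the same way the log2 ratio was 5.65 in place of 4.57 for Gm10334 and 5.85 in place of 5.05 for Gm5771. 2210010C04Rik, higher in WTg over all cells, was at 12849 CPM in EL1 against 2462 CPM in WTg here, and at 5988 and 2290 CPM without its highest cell in each library. Within cluster 9 alone it was higher in WTg, at 2784 CPM in EL1 against 7576 CPM in WTg. In EL1 as a whole, 10 cells held 85.7% of its UMIs, so no direction is given for it in this class. Prss2 went from a log2 ratio of -0.49 to 0.06 without its own highest cell in each library, so no direction is given for it.

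In the neuroendocrine-like class, 223 EL1 cells (203 of them in cluster 3) stood against 147 WTg cells (141 of them in cluster 5). The ratios of this class therefore compare mostly different clusters. The family level was 30507 and 36688 CPM, a log2 ratio of 0.27 that turned to -0.12, -0.16 and -0.37 when the cells or the clustering were changed. At least 2-fold higher in WTg were 4 of 10 members (Prss3, Gm5771, Gm10334 and Prss1), where 7.43% of 12997 genes were, and 2 were at least 2-fold lower (1810009J06Rik and 2210010C04Rik), where 5.57% were. Gm10334 had 298 CPM in EL1 against 7361 CPM in WTg, and with 20.1% of trypsinogen UMIs it was second there, above Prss2 at 15.03%. 1810009J06Rik had 3925 and 255 CPM. Prss1 had 114 and 3315 CPM, and 22.2 and 3047 CPM without its highest cell in each library (log2 ratio 7.10 in place of 4.87). For Gm5771 the log2 ratio was 5.59 in place of 2.56. 2210010C04Rik had 128 and 16.4 CPM, and 5.03 and 11.8 CPM without its highest cell, which turned its direction.

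The neuroendocrine-like clusters were named from hormone granule genes, with Chga raised in both, Penk in cluster 3 only and Pcsk2 in cluster 5 only. Within each library the neuroendocrine-like cells had less trypsinogen RNA than the other cells. The levels were 30507 against 88889 CPM in EL1 (log2 ratio -1.54) and 36688 against 84804 CPM in WTg (log2 ratio -1.21). In EL1, 5 of 10 members were at least 2-fold lower in them (1810009J06Rik, Gm2663, 2210010C04Rik, Try5 and Prss3), where 9.1% of 14872 genes were, and without its highest cell 2210010C04Rik was at a log2 ratio of -0.66. The 2 members at least 2-fold higher in them, Gm5771 and Prss1, where again 9.1% of genes were, rested on 1 cell of cluster 3 with 218 of the 545 Gm5771 UMIs and 607 of the 1368 Prss1 UMIs. Without it the log2 ratio was -1.40 for Gm5771, in place of 1.92, and 0.18 (-0.09 to 0.44) for Prss1, in place of 2.53.

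In WTg, 7 of 10 members were at least 2-fold lower in neuroendocrine-like cells, where 9.7% of 14914 genes were, and 0 were at least 2-fold higher, where 13.4% were. 2210010C04Rik differed most, at 16.4 CPM in neuroendocrine-like cells and 1958 CPM in the others, a 119-fold lower level (log2 ratio -6.90). Try4 stood at 136 and 1104 CPM and Prss2 at 5512 and 17186 CPM. Gm10334 was least lowered, with Prss1, at 7361 and 12468 CPM (log2 ratio -0.76), and Prss1 at 3315 and 5629 CPM (also -0.76).

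The 2 deep acinar-like clusters of WTg had nearly the same summed trypsinogen level and differed in paralogues. Cluster 1, led by Sycn and Pnliprp2, had 96466 CPM and cluster 8, led by Ctrl, Spp1 and Cela3b, had 92560 CPM (log2 ratio of cluster 8 over 1 of -0.06). At least 2-fold lower in cluster 8 were the 4 genes of the block (8.09% of 12734 genes were), and 1 member was at least 2-fold higher, 2210010C04Rik (6.18% of genes were). Prss1 had 8718 CPM in cluster 1 and 421 CPM in cluster 8, 20.7-fold lower (log2 ratio -4.37, interval -4.44 to -4.31). Gm10334 had 17236 and 4366 CPM, and Prss3 11575 and 5644 CPM. 2210010C04Rik had 1522 and 4996 CPM, 3.28-fold higher. Prss2 had 17422 and 25902 CPM and Try5 31262 and 43006 CPM, both under 2-fold. Both clusters are cells of the same library, so the library is shared between them.

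Partners of trypsinogen were taken as a list of 17 genes, of which 16 had at least 10 UMIs, 4 were at least 2-fold higher in WTg (10.1% of all genes were) and 2 at least 2-fold lower (6.9% were), with a median log2 ratio of 0.34 beside -0.14 over all genes. Spink1, the trypsin inhibitor, was alike in both libraries, at 3686 and 3782 CPM (log2 ratio 0.04), and so was Ctrb1, a chymotrypsinogen that trypsin activates, at 23506 and 28838 CPM. Higher were Ctrl, another chymotrypsin-like zymogen, at 13.9 and 213 CPM, Ctrc, which degrades trypsinogen, at 0.527 and 4.79 CPM, Serpina1a, a circulating protease inhibitor, at 10.7 and 48.6 CPM, and the neighbour Try10 at 1406 and 2952 CPM. Lower were F2rl1, a receptor cut by trypsin, with 23 and 7 UMIs, and Tmprss15, enteropeptidase itself, with 14 UMIs in EL1 and 1 in WTg (log2 ratio -3.61, interval -9.01 to -0.89). Ctsb, the lysosomal protease that can activate trypsinogen, had 209 and 342 CPM, under 2-fold. The other lysosomal proteases Ctsl (666 and 632 CPM) and Ctsd (301 and 388 CPM) were also within 2-fold. So were the receptors that drive acinar secretion, Cckar (190.4 and 135 CPM), Cckbr (2.77 and 4.21 CPM) and Chrm3 (12.1 and 15.1 CPM), the thrombin receptor F2r (2.40 and 3.73 CPM) and the granule fusion protein gene Vamp8 (133 and 119 CPM). A2m, a broad protease inhibitor, had 0 UMIs in both libraries.

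Of the acinar transcription factors, 7 in all, 1 was at least 2-fold higher in WTg, Bhlha15 (Mist1) at 43.9 and 91.6 CPM, and 0 were at least 2-fold lower, where 10.1% and 6.9% of all genes were. Ptf1a stood at 52.8 and 31.4 CPM and its partner Rbpjl at 129 and 135 CPM. The remaining 4 were Nr5a2 (18.1 and 22.3 CPM), Gata4 (30.4 and 37.4 CPM), Xbp1 (511 and 381 CPM) and Mecom (17.4 and 23.9 CPM). Of the 18 acinar markers, Cela3b, Ctrl, Ctrc, Pnlip, Rnase1, Amy2a5, Sycn, Gp2 and Bhlha15 were at least 2-fold higher in WTg, where 10.1% of all genes were. None was at least 2-fold lower, where 6.9% were. Sycn stood at 10.7 CPM in EL1 against 785 CPM in WTg, Cela3b at 300.2 and 3280 CPM and Pnlip at 2.53 and 24.1 CPM. The other markers were within 2-fold, among them Cpa1 (16088 and 17345 CPM) and Cpb1 (14207 and 15311 CPM). Their part in the difference between paralogues was not tested.

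The genes whose level over the 20 library-by-cluster sums followed the summed family most closely, among 11042 genes and by Pearson's r of log2(CPM + 10), were the carboxypeptidase gene Cpb1 (0.99), Spink1 (0.99), Try10 (0.945), the elastase gene Cela2a (0.93) and Copz2 (0.93). For Try5 they were Spink1 (0.98), Cpb1 (0.98) and Try10 (0.93), and for Prss2 Cpb1 (0.99), Spink1 (0.98) and Cela2a (0.92). Among the members themselves r was 0.98 for Try5 with Prss2 and 0.967 for Prss3 with Gm10334 and 0.965 for Gm5771 with Prss1, but -0.33 for 1810009J06Rik with Prss1. The 20 points share 2 libraries, so these values are descriptions.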

How the data were processed

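Single-cell RNA of pancreatic tumors was measured in 2 libraries. The deposited matrices hold UMI counts, produced by the authors with Cell Ranger, whose version 6.0.2 stands in the matrix header. The submitters' processing notes name GRCm38, R 4.1 and Seurat 4.0.5; the instrument that sequenced each library is not given in the sources used here. A read that maps to several genes is not counted by Cell Ranger. Per sample a dense table of counts was also deposited, and all 14710 and 13460 member values in it equalled those of the matrix.

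The 10 members, the 17 partners, the 7 transcription factors and the marker lists were chosen with earlier results of these data known. By rule all 10 members and all genes of both lists are named, with the 5 genes most like the family sum and the 3 most like each of the 2 leading paralogues (at least 200 UMIs). Acinar markers named beyond these were chosen after their values were seen. Members were left out of clustering (scanpy 1.11.5, leidenalg 0.10.2; 2000 variable genes, 30 components, 15 neighbours, resolution 1). A cluster was named from at least 3 markers raised by a log2 of 1 in at least 10% of its cells, more than of any other class, with at least 1 among its top 10 genes, thresholds set after the clusters were seen. Scrublet called 2 and 3 doublets, under 0.5% of cells, and they were kept.

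Intervals at 95% are exact Poisson (sums), conditional binomial (ratios) and Clopper-Pearson (shares), computed with scipy 1.17.1. For a count of 0, 3 counts (0.0790 CPM in EL1, 0.0909 CPM in WTg) stood in and the ratio is a bound. Since each group is 1 library, no test, SD or p-value was made. The ratio step was run on simulated Poisson sums, where 199 of 200 changed genes came back near their set value and 95.5% of intervals held it. The intervals are made for such counts, so this checks the computation only. The spread between cells was not simulated. Alternatives changed the cell filter, doublets, the top 1% of cells, the scaling (TMM in edgeR 4.0.16), cell weights, clustering, thinning and gene minimum.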

Additional observations from a re-analysis of the deposited data

Results flagged for a closer look

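The 508 and 583 barcodes removed by the filters, which enter none of the comparisons above, also held trypsinogen RNA. Of the sum and the 10 members, 8 were higher in WTg than in EL1, with no minimum fold set. Among these, Prss2 was 1.08-fold and the sum 1.10-fold higher. Lower were 1810009J06Rik, Gm2663 and Try5. The share of all genes higher in WTg in these barcodes was not counted. The summed family stood at 27992 CPM in WTg and 25533 CPM in EL1, but this direction came from the smaller part of the barcodes. In the 393 and 440 over the mitochondrial limit it was lower in WTg, at 25260 against 27627 CPM, and in the other 115 and 143 it was higher, at 51583 against 9447 CPM. Prss1 stood at 1494 CPM in WTg and 6.61 CPM in EL1, Gm10334 at 4119 and 155 CPM, Prss3 at 3291 and 180 CPM, and Gm5771 at 222.6 and 4.96 CPM. 2210010C04Rik was at 600.8 and 121 CPM, Try4 at 365 and 40.5 CPM, and Prss2 at 7048 and 6526 CPM. Prss2 too was lower in WTg over the mitochondrial limit, at 5974 against 7077 CPM, and higher in the others, at 16318 against 2295 CPM. In these barcodes 1810009J06Rik was at 392 CPM in WTg and 4686 CPM in EL1, with 214 and 5069 CPM over the mitochondrial limit and 1922 and 1743 CPM in the others.

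In neuroendocrine-like cells against the other cells of their library, Gm5771 and Prss1 went opposite ways in the libraries. Gm5771 had a log2 ratio of 1.92 in EL1 and -2.23 in WTg, and Prss1 had 2.53 in EL1 and -0.76 in WTg. The difference was not tested, and both EL1 values rest on 1 cell, without which they were -1.40 and 0.18.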

How the results depend on the processing

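Of 78 values recomputed for the summed comparisons, 39 moved by less than their counting interval or kept their count, 32 moved by more and 7 changed sign. The counts of 6 members higher and 2 lower by 2-fold were the same under each alternative run. Over 8 alternatives in the cells, scaling or weights the log2 ratio of Prss1 stayed between 7.13 and 7.30, of Gm5771 between 5.91 and 6.05, of Gm10334 between 4.76 and 4.99, of Prss3 between 3.46 and 3.79 and of 1810009J06Rik between -4.18 and -4.02.

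The family ratio over all cells (-0.03) was -0.053 with all barcodes, -0.051 with the stricter filter, -0.027 with the barcodes of the dense table, -0.038 without doublets, 0.025 without the 1% of cells with the most family UMIs, 0.081 with TMM, -0.000306 with members and acinar markers out of the denominator and 0.045 with cells weighted equally. In the acinar-like class (0.07) it was 0.028 with all barcodes, 0.145 without doublets, 0.009 without the top 1% of cells, 0.115 with TMM, 0.132 with cells weighted equally, 0.232 with members kept in clustering, 0.657 and -0.093 at resolutions 0.5 and 2, and 0.440 with genes centred within library. In the neuroendocrine-like class (0.27) it was 0.235 with all barcodes, 0.589 with the stricter filter, -0.120 with the dense table's barcodes, -0.158 without doublets, 0.244 with TMM, 0.282 with the reduced denominator, 0.364 with cells weighted equally, 0.499 with members kept, 0.142 at resolution 2 and -0.369 with genes centred. Cells were clustered anew where the filter, doublets or clustering changed, and the cause of each shift was not tested.

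The Try5 share of trypsinogen UMIs in EL1 (41.7%) was 40.5% without the top 1% of cells and 38.7% with cells weighted equally. In WTg (36.7%) it was 36.6% with all barcodes, 36.5% with the stricter filter, 35.8% without the top 1% and 43.2% with cells weighted equally, which turned the order of the libraries. The thinned share of cells with a family UMI in EL1 was 98.5% with the stricter filter, 96.4% at 1000 UMIs, 99.1% at 5000 UMIs and 100% unthinned, and in WTg 99.1% at 5000 UMIs and 99.8% unthinned.

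Leaving out the cell with the most UMIs of a gene was added after the data were seen. It took the ratio over all cells outside the ranges above for Prss1 (8.003), Gm5771 (6.59) and 1810009J06Rik (-4.22), and left Gm10334 (4.90) and Prss3 (3.57) inside them. It turned 2210010C04Rik in the neuroendocrine-like class to 1.23, Prss2 in the acinar-like class to 0.056 and Gm5771 in neuroendocrine-like over other EL1 cells to -1.40. The acinar-like class under the stricter filter (19 EL1 cells) and the neuroendocrine-like class at resolution 0.5 (16 WTg cells) were under 20 cells and gave no value. No paired analysis was possible because both groups consist of 1 library. No replicate could be left out for the same reason.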
